A study of Mus musculus with 35 samples.

Results

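Genes that mark the epiblast on its way from the naive state to gastrulation were followed, 8 in all: 3 genes of the primed epiblast (Fgf5, Otx2 and Pou3f1) and 5 genes of the primitive streak and the mesoderm and endoderm that leave it (T, Mixl1, Eomes, Gsc and Mesp1). They are 8 of the 27962 gene names on the array, and every probe that carries one of these names in the scanner files was taken, 9 probes in all, since Mesp1 has a second one. Gene expression was measured with 1-colour Agilent arrays, 1 array per sample, on 35 mouse samples. The 30 iPS clones came from 3 kinds of cells of 6-week-old mice that carry a Nanog-GFP-puromycin reporter: PaS, bone marrow cells sorted as CD45-Ter119-PDGFRa+Sca-1+ (mesenchymal stem cells), OP, bone marrow cells sorted as CD45-Ter119-PDGFRa-Sca-1- (osteoprogenitors), and TTF, tail tip fibroblasts. The cells of each source were infected with retroviruses for Oct3/4, Sox2 and Klf4 with c-Myc (4F) or without it (3F), and a DsRed virus was added to follow silencing. In each of the 6 groups 5 clones were arrayed (4F- and 3F-PaS-iPS, 4F- and 3F-OP-iPS, 4F- and 3F-TTF-iPS), beside 2 ES cell lines (EB-3 and RF8) and 1 array for each source. The clones were picked for reporter GFP, selected with puromycin and grown with LIF on SNL feeder cells, which are themselves fibroblast-like. Each clone counts as 1 replicate, the sources have no replicate, and EB-3 and RF8 are 2 different lines.

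Mouse ES cells in serum and LIF resemble the naive inner cell mass, while a fraction of the cells drifts toward the primed, egg-cylinder epiblast. Otx2 is a homeodomain factor that drives this step, Pou3f1 (Oct6) is a POU factor that rises with it, and Fgf5 is a secreted growth factor and the classic marker of the primed epiblast. The streak forms where Nodal and Wnt signals meet: the T-box factor Eomes acts first, T (Brachyury) marks nascent mesoderm, Mixl1 and Gsc are homeobox genes of mesendoderm and of the organizer, and Mesp1 is a bHLH factor of the earliest cardiac and cranial mesoderm. Eomes is also a gene of trophoblast stem cells, and Gsc is active later in limb and skeletal mesenchyme.

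All values rest on a few 60-base probes, and 30 bases of each are shown to identify it. Where a probe holds a polyadenylation hexamer (AATAAA) the window is set on it and the hexamer is in capitals, and otherwise the first 30 bases are shown.
Fgf5: ttatattcctaaatgctgcAATAAAgaggc
Otx2: agatcattggtttcctgatttgcaaatgat
Pou3f1: tccggcgcgcagttagcgcgcgcggcctgg
T: taagagcaataatacatgtcctataatcat
Mixl1: ggactcatcaccaagactcattactctttt
Eomes: caggtaAATAAActgaagcagacctagcat
Gsc: cggtgacaatacAATAAAgtgatggcaatg
Mesp1, main probe: acaatgcaacggatgattgtcaccctgtct
Mesp1, second probe: gtgtatttatttatttgtgAATAAAccgat
The hexamer stands in 4 of the 9 probes (Fgf5, Eomes, Gsc and the second Mesp1 probe), against 4.78% of the 41174 gene probes on the strand of the probe. In the array design's annotation on mouse build mm7 the Fgf5 probe lies at chr5:97491844-97491903 (plus strand), Otx2 at chr14:43989807-43989866 (minus), Pou3f1 at chr4:124103741-124103800 (plus), Mixl1 at chr1:180673929-180673988 (minus), Eomes at chr9:118163832-118163891 (plus) and Gsc at chr12:101965538-101965597 (minus). The T probe was placed on an unassigned stretch of chromosome 17, from base 1303091 to 1303150. The Mesp1 probes lie at chr7:75661057-75661116 (main) and chr7:75660860-75660919 (second), both on the minus strand. No annotation of that build was used here, so exon and UTR positions are not given. Otx2 and T are printed as 10 replicate spots on each array, and the other members as 1 spot.

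Levels are given on a log2 scale on which 0 is the 75th percentile of the gene probes of the same array and each unit is a 2-fold step. A probe counts as above background on an array where at least 50% of its spots were flagged well above background by the scanner software, and a level below that is only an upper limit. Levels of different probes are not compared. The 30 clones were scanned in 1 session on 8 slides, and neither ES array shared a slide or a session with them, so that cell type and scan session cannot be told apart in any contrast of clones with ES cells. Above-background probes made up 56.6% to 65.7% of the gene probes on the clone arrays. With the ES and source arrays included the share reached 71.1%, so the depth of detection may differ between clones and those arrays. Nanog and Sox2 were low in 4 clones (4F-OP-iPS #1, #2 and #3 and 4F-TTF-iPS #1), with Nanog at -8.24 to -3.30 and Sox2 at -8.21 to -2.04, against -0.89 to 3.68 and 0.21 to 3.23 in the other 26 clones. They are called the Nanog-low clones, and results that rest on them are given with and without them. The summed level of 8 ES cell markers, in multiples of the 75th percentile, was 10.9 at its lowest in the 4F-OP-iPS clones and 331 to 634 in ES cells.

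**Figure D1:**
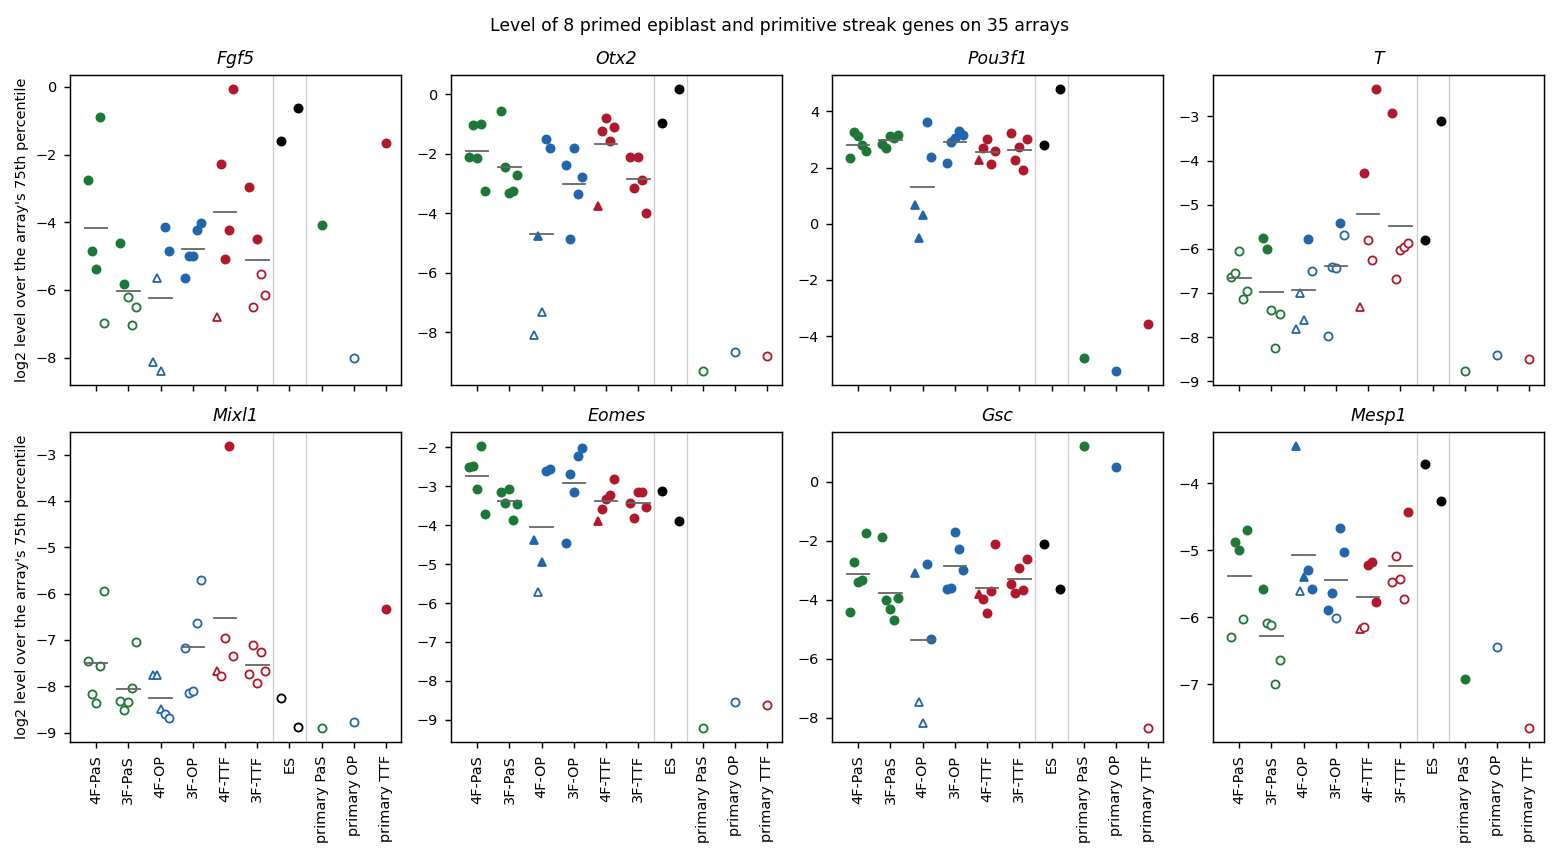
Level of each member (log2, relative to the 75th percentile of the array) on all 35 arrays, with one panel per gene and one column per group. Filled symbols are above background and open symbols are not, triangles are the 4 Nanog-low clones, and grey bars are means of 5 clones. Pou3f1 is filled on every array, T is filled in 7 of 30 clones, and Mixl1 in 1.

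Fgf5, the secreted marker of the primed epiblast, ranged from background to above the level of ES cells among the clones. It was above background in 19 of 30 clones and spanned -8.39 to -0.05 over all clones (median -5.04, SD 1.89, n = 30). The 5 4F-PaS-iPS clones (#1 to #5) gave -2.75, -4.85, -5.39, -0.88 and -6.98. Those of the 4F-TTF-iPS group gave -6.79, -2.27, -5.08, -4.23 and -0.05. The highest clones of these groups were 4F-PaS-iPS #4, which lay between the ES lines, and 4F-TTF-iPS #5, which lay above both. Each group also held clones at or near background. The 3F-PaS-iPS clones gave -4.63, -5.83, -6.20, -7.04 and -6.51, and only #1 and #2 were above background. The 4F-OP-iPS clones gave -8.14, -5.64, -8.39, -4.14 and -4.85, with #4 and #5 above background. The 3F-OP-iPS clones lay close together at -5.65, -4.99, -5.01, -4.22 and -4.03, all above background. It was the only clone group with Fgf5 above background in all 5 clones (SD 0.66). The 3F-TTF-iPS clones gave -2.97, -6.51, -4.49, -5.52 and -6.15, of which #1 and #3 were above background. ES cells gave -1.60 (EB-3) and -0.61 (RF8), and 28 of 30 clones lay below both. The sources differed among themselves: primary TTF gave -1.67, close to EB-3, primary PaS gave -4.10 and primary OP was not above background (-8.01).

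Ordered by mean, the groups ran from ES cells (-1.11) through 4F-TTF-iPS (-3.69 ± 2.60, SD, n = 5), 4F-PaS-iPS (-4.17 ± 2.38), 3F-OP-iPS (-4.78 ± 0.66), 3F-TTF-iPS (-5.13 ± 1.43) and 3F-PaS-iPS (-6.04 ± 0.91) to 4F-OP-iPS (-6.23 ± 1.93). In each of the last 3 groups 3 of 5 clones gave only upper limits, so their places in the order are not settled. Neighbouring clone groups overlapped, and no comparison between clone groups passed the test for Fgf5. In the limma fit over all tested probes, Fgf5 was lower in the clones than in ES cells by a log2 difference of -3.90 (SE 1.24, adjusted p = 0.00999). Since 11 of 30 clones gave only upper limits, the size depends on how dim signals are treated, and with a floor under them it was -3.55. Fewer cells of a type and less RNA per cell cannot be told apart in such bulk samples. Taking out EB-3 gave -4.39 (adjusted p = 0.0504) and taking out RF8 gave -3.41 (adjusted p = 0.115), so the call needs both ES arrays. With normexp background correction, which compresses dim signals, the difference was -1.73 (adjusted p = 0.0103).

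Otx2, the driver of the primed state, was above background in 28 of 30 clones. The levels of the 4F-PaS-iPS clones were -2.10, -1.04, -2.14, -1.0 and -3.26, and those of the 3F-PaS-iPS clones -0.55, -2.45, -3.32, -3.25 and -2.71. The 4F-OP-iPS clones gave -8.11, -4.76, -7.33, -1.49 and -1.80, where #1 and #3 were not above background. The 3F-OP-iPS clones gave -2.39, -4.86, -1.79, -3.34 and -2.77. All 3 Nanog-low OP clones were below clones #4 and #5 of the same group, while 3F-OP-iPS #2 (-4.86), with Nanog at 1.29, lay as low as 4F-OP-iPS #2. The 4F-TTF-iPS clones gave -3.75, -1.24, -0.78, -1.56 and -1.10, with the Nanog-low #1 the lowest. The 3F-TTF-iPS clones gave -2.10, -3.16, -2.12, -2.89 and -3.99. ES cells gave -0.95 and 0.19, which 28 of 30 clones lay below. No clone was above RF8, and the exceptions were 3F-PaS-iPS #1 and 4F-TTF-iPS #3, which fell between the ES lines. None of the 3 sources was above background, so ES cells were at least 68.6-fold higher than primary OP, at least 75.5-fold higher than primary TTF and at least 110-fold higher than primary PaS. The SD between the replicate spots of Otx2 within an array, which covers spot noise only, was 0.0778 (median over the 30 arrays above background).

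By mean, Otx2 was highest in ES cells (-0.38), followed by 4F-TTF-iPS (-1.69 ± 1.19), 4F-PaS-iPS (-1.91 ± 0.93), 3F-PaS-iPS (-2.46 ± 1.13), 3F-TTF-iPS (-2.85 ± 0.79), 3F-OP-iPS (-3.03 ± 1.17) and 4F-OP-iPS (-4.70 ± 3.05). Neighbouring groups of clones overlapped throughout. Against ES cells the log2 difference was -2.39 (SE 1.08, adjusted p = 0.0655), and without the Nanog-low clones it was -1.80 (SE 0.64, adjusted p = 0.0215).

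Pou3f1, the POU factor, was the only member above background on all 35 arrays. It was even over the clones outside the Nanog-low ones, from 1.91 to 3.61 (median 2.88, SD 0.42, n = 26). The Nanog-low OP clones gave 0.67, -0.50 and 0.30, below the other 27 clones, whereas the Nanog-low 4F-TTF-iPS #1 gave 2.28 and lay within their range. ES cells gave 2.80 and 4.81, so that the ES lines differed 4.03-fold and the clones lay at or below the lower line in 15 cases and between the lines in the other 15. Primary PaS, OP and TTF gave -4.77, -5.24 and -3.57, and all 30 clones were above them. The mean difference from ES cells was -1.27 (SE 0.57, adjusted p = 0.0624), and it was -2.28 (adjusted p = 0.0202) without EB-3 but -0.27 (adjusted p = 0.796) without RF8.

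Among the streak genes, Eomes, the T-box factor that acts first, was detected in nearly every clone. It was above background in 29 of 30 clones, with levels from -5.72 to -1.97 (median -3.19, SD 0.83). The exception was 4F-OP-iPS #2. ES cells gave -3.11 and -3.89, and 15 clones lay between the lines, 11 above and 4 below, 3 of them the Nanog-low OP clones (-4.37, -5.72 and -4.94). None of the sources was above background. The difference between clones and ES cells was 0.19 (95% interval -0.94 to 1.32), the smallest among the tested members, and it was 0.59 without EB-3 and -0.20 without RF8. Eomes also marks trophoblast: the summed level of 8 trophoblast markers, a list without Eomes, was 29.0 to 618 in the clones and 8.87 and 39.5 in ES cells, and its part in the Eomes level was not tested.

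Gsc, the organizer gene, was above background in 28 of 30 clones, and both exceptions (4F-OP-iPS #2 at -7.47 and #3 at -8.17) were Nanog-low. The other 28 clones spread from -5.32 (4F-OP-iPS #5) to -1.72 (3F-OP-iPS #3). ES cells gave -2.10 and -3.63, with 12 clones between them, 15 below and 3 above (4F-PaS-iPS #5, 3F-PaS-iPS #1 and 3F-OP-iPS #3). The highest Gsc levels of the series were in the bone marrow cells themselves: primary PaS gave 1.20 and primary OP 0.51, above every clone and both ES lines, while primary TTF was not above background (-8.36). The highest clone lay 2.91 below primary PaS and 2.22 below primary OP on the log2 scale. Among the clones the levels did not follow the source, with a mean of -3.45 in both the PaS-iPS and the TTF-iPS clones and -4.11 in the OP-iPS clones (n = 10 each), and none of these comparisons passed the test. The OP mean includes the upper limits of 4F-OP-iPS #2 and #3. The difference between PaS- and OP-iPS clones was 0.66, and without the Nanog-low clones it was 0.00062.

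T, the marker of nascent mesoderm, was above background in 7 of 30 clones and in both ES lines. The highest levels were in 3 TTF-derived clones: 4F-TTF-iPS #5 gave -2.37, 3F-TTF-iPS #1 gave -2.92 and 4F-TTF-iPS #2 gave -4.29. The other 4 were 3F-OP-iPS #4 (-5.42), 3F-PaS-iPS #1 (-5.76), 4F-OP-iPS #4 (-5.78) and 3F-PaS-iPS #2 (-6.02). ES cells gave -5.81 (EB-3) and -3.10 (RF8), a 6.56-fold difference between the lines. Against the mean of the 23 clones not above background, 4F-TTF-iPS #5 was at least 10.8-fold higher, and against each of them at least 5.48-fold. None of the 4F-PaS-iPS clones was above background, and neither was any Nanog-low clone or any source. T was read by 10 spots, and in the 3 TTF-derived clones every spot kept was above background (10 of 10, 9 of 9 and 10 of 10), with SDs of 0.0769 to 0.152 between spots. In the weakest of the 7, 3F-PaS-iPS #2, only 5 of 10 spots were above background, with an SD of 0.602.

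**Figure D2:**
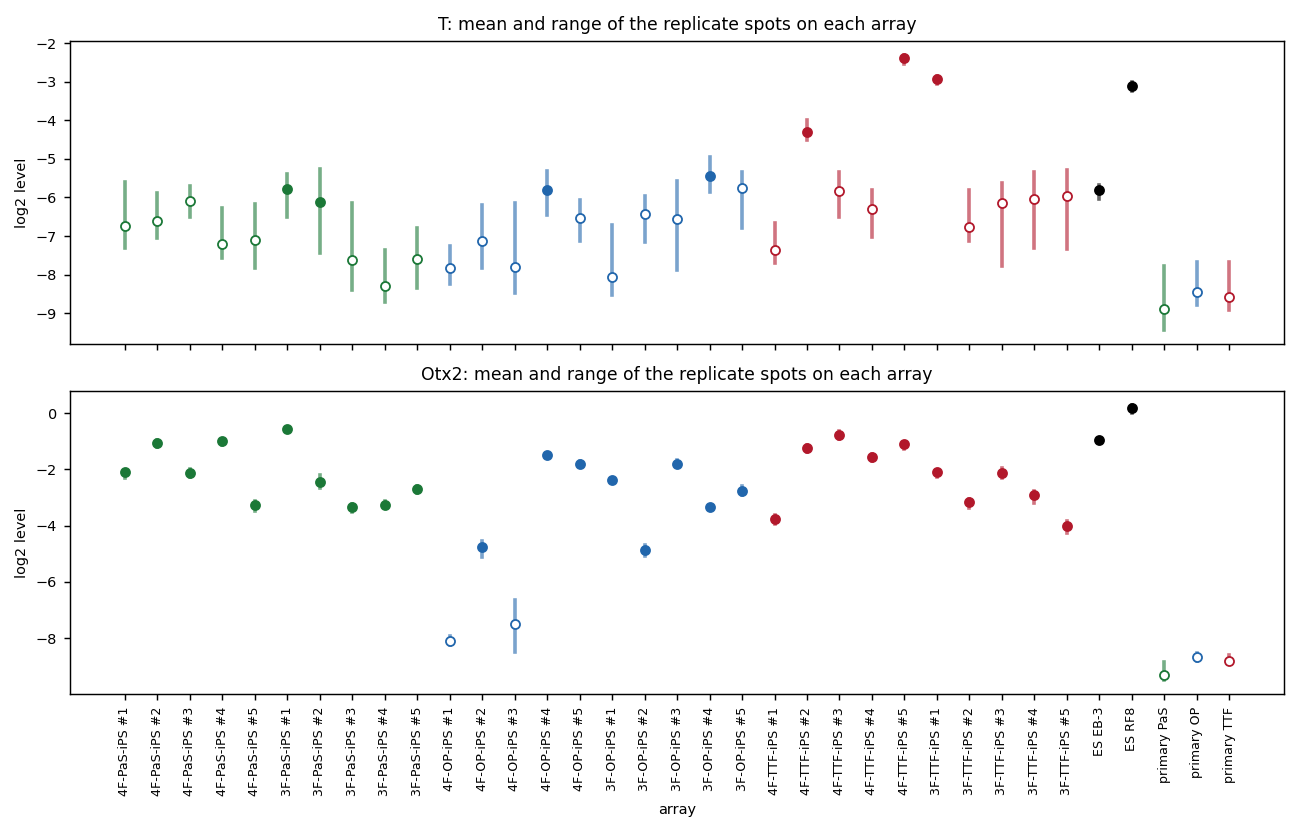
Mean (circle) and range (bar) of the replicate spots of T (upper panel) and Otx2 (lower panel) on each of the 35 arrays, as log2 level relative to the 75th percentile of the array. Filled circles are arrays on which at least 50% of spots were above background. The T spots of 4F-TTF-iPS #2 and #5, 3F-TTF-iPS #1 and RF8 are tightly grouped above the rest.

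The clones highest in T were also high in Fgf5, but the reverse did not hold. The Fgf5 levels of 4F-TTF-iPS #5, 4F-TTF-iPS #2 and 3F-TTF-iPS #1 were -0.05, -2.27 and -2.97, which made them 3 of the 5 clones with the most Fgf5. The remaining pair, 4F-PaS-iPS #4 (-0.88) and #1 (-2.75), had T at -7.14 and -6.64, not above background. Otx2 was -1.10, -1.24 and -2.10 in the 3 TTF-derived clones, within the range of the others. Mixl1 was not above background in any of the 3. Eomes lay at -2.81, -3.59 and -3.44 and Gsc at -2.11, -3.99 and -3.48, so that 4F-TTF-iPS #5 had the highest Eomes and Gsc of the 10 TTF-derived clones while the others lay among them. These clones lay on 3 different slides. The TTF source itself was high in Fgf5 but not above background in T. For 8 ES cell markers the summed level was 252 in 4F-TTF-iPS #5, 109 in 4F-TTF-iPS #2 and 316 in 3F-TTF-iPS #1. The median over all clones was 380. The summed level of 12 fibroblast markers was 408 in 4F-TTF-iPS #5, the highest of the clones, and 186 and 155 in 4F-TTF-iPS #2 and 3F-TTF-iPS #1, against a median of 164 over the clones. In EB-3, whose Fgf5 was -1.60, that sum was 1.81. The part of such cells in the Fgf5 and T levels of these clones was not tested.

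**Figure D3:**
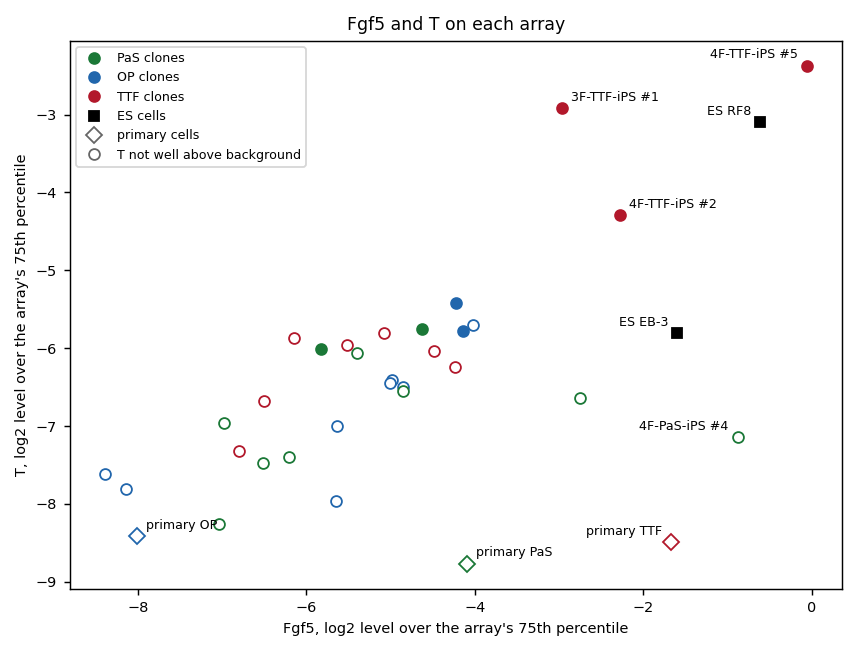
Level of Fgf5 (x axis) against T (y axis), both log2 relative to the 75th percentile of the array, on each of the 35 arrays. Colours give the source, squares are ES cells, diamonds are primary cells, and open symbols mark T not above background. The 3 TTF-derived clones and RF8 are high in both genes, whereas 4F-PaS-iPS #4 and primary TTF are high in Fgf5 alone.

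Mixl1, the homeobox gene of mesendoderm, was above background in 1 of 30 clones, 4F-TTF-iPS #4 at -2.82. In this clone it was at least 8.06-fold higher than the mean of the other 29 and at least 4.02-fold higher than each of them, and their levels of -8.68 to -5.70 are only upper limits. The same clone had T at -6.25, not above background, and Eomes (-3.23) and Gsc (-3.71) in the range of its group. Neither ES line was above background, and among the sources only primary TTF was (-6.33). Mixl1 failed the filter for the fit, which keeps a probe only if all arrays of some group, ES cells included, had it above background, so 7 of the 8 members were tested. T and Mesp1 passed that filter through the ES arrays alone, and Fgf5 through ES cells and 3F-OP-iPS.

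Mesp1, the gene of cardiac and cranial mesoderm, was dim everywhere. Its main probe was above background in 16 of 30 clones, with levels of -6.99 to -3.45 over all clones (median -5.57, SD 0.71). ES cells gave -3.71 and -4.27, and 29 of 30 clones lay below both. The exception was the Nanog-low 4F-OP-iPS #1 at -3.45, where the second probe was also high for that probe (-4.03, against -7.91 to -4.49 in the other clones). Mesp1 entered the fit only through the ES arrays, the group in which it was high, so its difference from them is a description: -1.52 (SE 0.45, adjusted p = 0.00601) with 14 of 30 clones at upper limits, and -1.35 with a floor under dim signals. With no filter, over all gene probes, the adjusted p in limma was 0.00759. With the second probe it was -1.55 (adjusted p = 0.0518), without EB-3 it was -1.25 (adjusted p = 0.126), and with normexp it was -0.43 (adjusted p = 0.364).

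The first comparison asked how far the clones resembled ES cells. A probe was called changed at an adjusted p under 0.05 (limma, Benjamini-Hochberg over 27623 tested probes) and a 2-fold difference or more. Against ES cells 2 of the 7 tested members were called, Fgf5 and Mesp1, both lower in the clones, beside 36.2% of all tested probes. The Mesp1 call is not counted as support, since the ES arrays alone brought Mesp1 into the fit. The same holds for T, whose log2 difference of -1.82 (SE 0.87, adjusted p = 0.0814) rests on upper limits in 23 of 30 clones and became -3.18 (adjusted p = 0.0361) without EB-3, -0.47 (adjusted p = 0.771) without RF8 and -1.92 (adjusted p = 0.0429) with quantile normalization. Gsc differed by -0.81 (SE 0.89, adjusted p = 0.463), by -0.042 without EB-3 and by -1.57 without RF8, and the median of all tested probes was -0.11. The exact permutation test of single members, 32 arrays with 496 arrangements, two-sided and not adjusted, gave p = 0.0101 for Fgf5 and 0.0746 for Otx2. Other lists moved with this comparison too: the summed level of 8 primitive endoderm markers was 9.55 to 136 in the clones, with 7 above background in every clone, against 0.562 in EB-3 (6 above background) and 1.68 in RF8 (7), and the fibroblast sum was 72.1 to 408 in the clones against 1.81 and 155. In the sources the primitive endoderm sum was 5.44 (PaS), 9.16 (OP) and 36.8 (TTF). The part of these lists in the members' differences was not tested, nor was that of the ES lines' culture.

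The comparison of sources asked whether clones of different cells differ. No member was called between PaS- and OP-iPS clones, where 1.60% of tested probes were. Otx2 had the largest difference, 1.68 higher in PaS-iPS clones (SE 0.66, adjusted p = 0.138), and without the Nanog-low clones it was 0.15 (SE 0.46). Without 4F-OP-iPS #4 alone, Otx2 (2.08, adjusted p = 0.0349) and Pou3f1 (1.08, adjusted p = 0.0190) were called in this comparison. No member was called between PaS- and TTF-iPS clones either (0.500% of probes). T was lower in PaS- than in TTF-iPS clones by a log2 difference of -1.48 (SE 0.54, adjusted p = 0.153), above background in 2 and 3 of 10 clones, and the permutation test with 100000 resamples gave p = 0.0120 before any adjustment. Between OP- and TTF-iPS clones, with 0.0217% of probes called, no member was. The log2 differences, OP minus TTF, were -1.59 for Otx2 (adjusted p = 0.418) and -1.31 for T (adjusted p = 0.406). Without the Nanog-low clones the Otx2 difference was -0.32 (adjusted p = 0.851). T was above background in 2 of 10 OP- and 3 of 10 TTF-iPS clones, so that its size rests on upper limits.

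The comparison of factors set 3F- against 4F-clones. Puromycin selection began later after infection for 3F than for 4F cells, so c-Myc and time to selection cannot be told apart. Over the 3 sources no member was called between 3F- and 4F-clones, beside 5.34% of probes. Otx2 differed by -0.02 (SE 0.54), and without the Nanog-low clones, all of which are 4F, by -1.21 (SE 0.36, adjusted p = 0.0258), lower in 3F-clones. Within PaS-iPS clones no member was called (0.0181% of probes), nor within TTF-iPS clones (5.77%). Within OP-iPS clones, where 4.51% of probes were called, Gsc and Pou3f1 were higher in 3F-clones. Each of these 2 calls was lost in 7 of the 10 fits with 1 OP-iPS clone left out. With no filter on dim probes both were lost too (adjusted p in limma 0.0577 for Gsc and 0.0575 for Pou3f1). The Gsc difference was 2.53 (SE 0.77, adjusted p = 0.0423), with 2 of 5 4F-OP-iPS clones not above background, and became 0.74 (adjusted p = 0.241) with normexp and 1.73 (adjusted p = 0.0794) with a floor under dim signals. With slide as a random block the adjusted p was 0.167 for Gsc and 0.163 for Pou3f1. The Pou3f1 difference was 1.62 (SE 0.49, adjusted p = 0.0417). The 3F-OP-iPS clones gave Gsc at -3.63, -3.60, -1.72, -2.27 and -3.01, and the 4F-OP-iPS clones at -3.11, -7.47, -8.17, -2.78 and -5.32, so the groups overlapped. For Pou3f1 the 3F-OP-iPS clones gave 2.15, 2.92, 3.04, 3.29 and 3.15, and the 4F-OP-iPS clones 0.67, -0.50, 0.30, 3.61 and 2.39, which also overlapped. Without the Nanog-low clones, which left 2 4F-OP-iPS clones, Gsc differed by 1.21 (adjusted p = 0.613) and Pou3f1 by -0.09 (adjusted p = 0.965). The exact permutation test of 252 arrangements gave p = 0.0794 for Gsc and 0.0952 for Pou3f1, two-sided. Whether the 3F-4F difference varied between sources was tested as an interaction, and no member passed. The lowest adjusted p in limma was 0.123, for Gsc between PaS and OP. Without 4F-OP-iPS #4 the count that passed was 3.

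**Figure D4:**
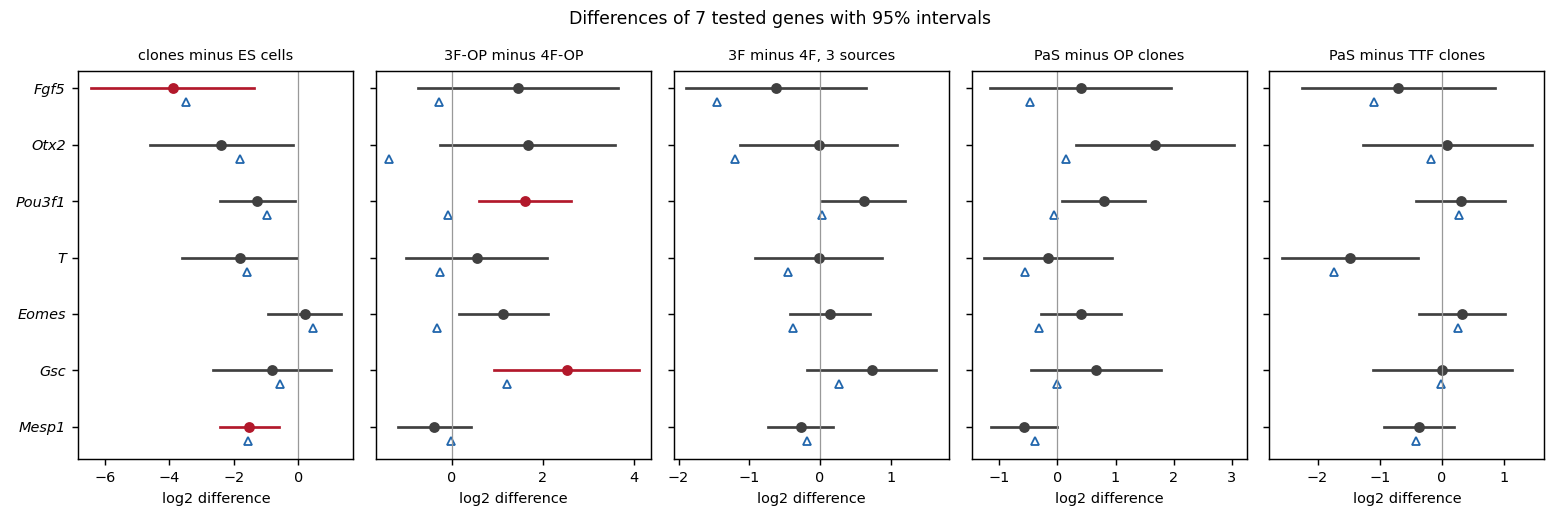
Log2 difference (circle) with its 95% interval from limma for the 7 tested members in 5 comparisons, red where called. Blue open triangles give the same difference without the 4 Nanog-low clones. Fgf5 and Mesp1 lie below 0 against ES cells with and without them, and the Gsc and Pou3f1 differences between 3F- and 4F-OP-iPS clones shrink without them.

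Of 15 pairs of members that were both above background in at least 10 clones, 1 passed the permutation test after adjustment over the pairs: Pou3f1 and Eomes, with Pearson's r of 0.634 (adjusted p = 0.0036) and Spearman's rho of 0.495 (adjusted p = 0.105) over 29 clones. It rests on the Nanog-low clones, since r was 0.319 over the 26 others and 0.361 without the 2 clones farthest in Pou3f1. Within groups r was 0.650, and within slides 0.706. By source it was -0.098 in 10 PaS clones, 0.866 in 9 OP clones and 0.012 in 10 TTF clones. Fgf5 and Otx2 gave an r of 0.317 (adjusted p = 0.634) over 19 clones. By source the r of Fgf5 and Eomes was 0.878 (6 PaS clones), 0.882 (7 OP clones) and 0.408 (6 TTF clones), with 0.336 (adjusted p = 0.634) over all 19 together.

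For the members above background in at least 20 clones, the genes with the most similar profile over the 30 clones were sought among 14174 probes (14173 for Pou3f1) above background in every clone, as a description without a test. The closest profiles to Eomes were those of Zscan10, a zinc finger factor of pluripotent cells (r = 0.864), Camsap3, a microtubule minus-end protein (0.829), and Dppa2, a gene of pluripotent and germ cells (0.829), and they stayed at 0.684 to 0.726 over the 26 clones without the Nanog-low ones. For Pou3f1 they were Rhox5, an X-linked homeobox gene (0.874), Fmr1nb (0.841) and Cdyl2, a chromodomain protein (0.839), which fell to 0.326 to 0.516. For Otx2 they were Nefl, the light neurofilament (0.828), Gldc, the glycine decarboxylase (0.806), and an unnamed transcript (0.793), which fell to 0.391 to 0.585. For Gsc they were the RIKEN transcripts 4930500J02Rik (0.835) and 2310047M15Rik (0.758) and Dna2l (0.745), which gave 0.580 to 0.725.

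Other genes of the same stages gave a mixed picture against ES cells. Of 20 other primed epiblast genes, 18 were tested, 9 were lower and 2 higher in the clones, beside 36.2% of all tested probes called (5240 lower and 4761 higher), with a median difference of -1.89 against -0.11 over all tested probes. Zic5, among the lower genes, entered the fit through the ES arrays alone. The largest decreases were in Lef1, a nuclear partner of Wnt signalling (-4.51, SE 1.27, adjusted p = 0.00421), Lin28b, which blocks let-7 (-4.26, SE 0.70, adjusted p = 1.62e-05), Tdgf1, the Nodal co-receptor (-3.35, SE 0.91, adjusted p = 0.00329), and Foxd3, a forkhead repressor (-3.03, SE 0.80, adjusted p = 0.00258). The higher genes were Fst, an activin antagonist (4.62, SE 0.80, adjusted p = 2.82e-05), and Cldn6, a tight-junction protein (1.48, SE 0.61, adjusted p = 0.0438). Between 3F- and 4F-clones over the 3 sources, Zic2 (-1.55), Zic5 (-1.32) and Lin28b (-1.29) were lower in 3F-clones and no other gene of this list was called, beside 5.34% of all probes, with a list median of -0.48 against 0.03. Zic2 was above background in 9 of 15 3F- and 14 of 15 4F-clones, and Zic5 in 4 of 15 and 10 of 15. The sizes of both therefore rest in part on upper limits. Within OP-iPS clones 2 of 18, Nodal (2.56) and Cldn6 (2.05), were higher in 3F-clones, beside 4.51% of all probes called, and without the Nanog-low clones neither was called (0.15 and 1.65).

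Of 37 other primitive streak and early mesendoderm genes, 31 were tested, and against ES cells 10 were higher and 9 lower, beside the same 36.2% of all probes, with a median of 0.09. The lower genes were led by Fgf17 (-5.18, SE 0.77, adjusted p = 3.8e-06), an FGF ligand above background in 6 of 30 clones, Lefty1 (-4.99, SE 0.97, adjusted p = 0.000115), a Nodal antagonist, Sp5 (-4.23, SE 1.07, adjusted p = 0.00174), a Wnt target, and Wnt8a (-4.04, SE 1.20, adjusted p = 0.00608), a Wnt ligand of the streak above background in 14 of 30 clones. Fgf17 and Wnt8a entered the fit through the ES arrays alone, so their differences from ES cells are descriptions whose sizes rest on upper limits, and the count of lower genes includes them. The higher genes were led by Sox17 (6.73, SE 0.60, adjusted p = 2.18e-09), Gata6 (5.95, SE 0.57, adjusted p = 7.76e-09), Foxa2 (5.76, SE 0.69, adjusted p = 1.79e-07) and Pdgfra (4.65, SE 0.76, adjusted p = 1.48e-05). Sox17, Gata6 and Foxa2 are also genes of primitive endoderm and stand in that marker list, as does Gata4 (4.41), while Pdgfra is a gene of primitive endoderm and mesenchyme and part of the gate that defined PaS cells. Between 3F- and 4F-clones over the 3 sources, Hand1 (2.45), Wnt3 (1.96), Cdx2 (1.93) and Mesp2 (1.02) were higher in 3F-clones, and Wnt8a (-1.77) and Evx1 (-1.49) lower, beside 5.34% of all probes called. The sizes for Wnt8a and Evx1 rest largely on upper limits, since Wnt8a was above background in 4 of 15 3F- and 10 of 15 4F-clones and Evx1 in 1 and 8 of 15. Evx1 entered the fit through the 4F-TTF-iPS clones alone, where it was high, so its differences that involve them are descriptions. Hand1 and Cdx2 belong to the trophoblast list as well. The median sum of that list was 401 in 3F- against 171 in 4F-PaS-iPS clones, 191 against 121 in OP-iPS and 228 against 218 in TTF-iPS clones. Its part in these differences was not tested. Without the Nanog-low clones Hand1 (0.82), Wnt3 (1.01) and Mesp2 (0.58) were no longer called, while Cdx2 (1.23), Wnt8a (-2.32) and Evx1 (-1.50) were. Evx1, a homeobox gene of the posterior streak, was also lower in 3F- than in 4F-TTF-iPS clones (-2.85, SE 0.60, adjusted p = 0.00444), with no overlap and 1 against 5 of 5 clones above background, where Mesp2 was higher (1.67, adjusted p = 0.0284, and 1.30 with 0.0655 without the Nanog-low clone). These 2 of 31 genes are near the 5.77% of all probes called there. Evx1 was lower in PaS- than in TTF-iPS clones (-1.73, adjusted p = 0.0410), above background in 1 and 6 of 10 clones, so that the size rests on upper limits. It was the only gene of either list called between sources (0.500% of all probes in that comparison), and without the Nanog-low clones it missed the threshold (-1.63, adjusted p = 0.0579). Within OP-iPS clones 2 of 31, Cdx2 (2.47) and Mesp2 (1.57), were higher in 3F-clones, near the 4.51% of all probes called, and without the Nanog-low clones neither was called (0.14 and 0.60).

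**Figure D5:**
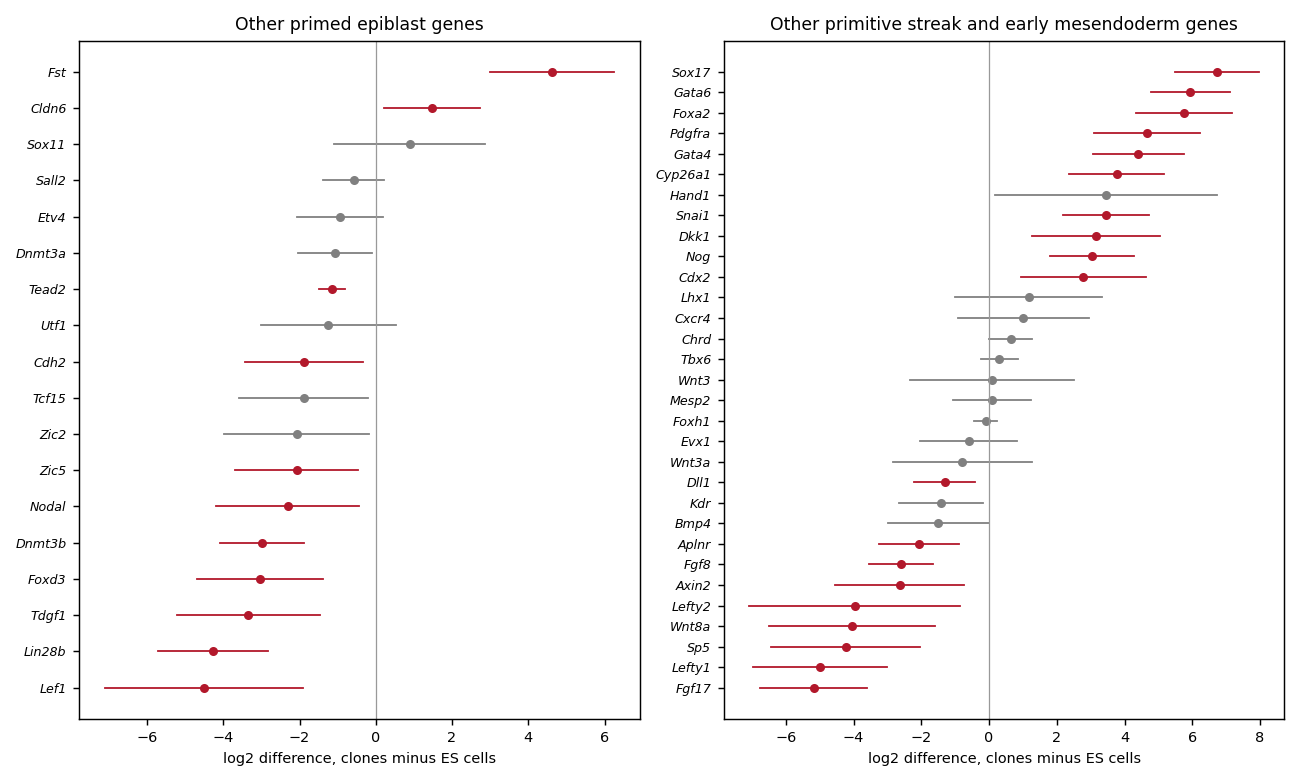
Log2 difference between all clones and ES cells, with 95% intervals from limma, for the 18 tested genes of the primed epiblast list (left) and the 31 of the streak list (right), red where called. Most primed epiblast genes lie below 0, and the streak list splits into genes above and below 0, with Sox17, Gata6 and Foxa2 at the top.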

How the data were processed

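The authors deposited 1 Agilent Feature Extraction file per array, with intensity values from which the software had subtracted the background, and a series table of log2 values, normalized by the authors, that had a correlation of at least 0.9999 with the levels used here on each array. Control spots and outlier spots were left out (54 to 152 per array) and replicate spots averaged, which gave 41174 gene probes. Levels are log2 intensities minus the 75th percentile of the array. Of Mesp1, the probe with the higher mean was taken as main. Group differences were fitted with limma 3.58.1 (R 4.3.3) in 1 model of 7 groups over 27623 probes, and other values with Python 3.11.15, numpy 2.4.6 and scipy 1.17.1. On simulated data with 200 changed probes among 27623, 45% of the 2-fold and 88% of the 4-fold differences were recovered for 3F- against 4F-OP-iPS clones, and for clones against ES cells 36% and 80%. Recovery there needed an adjusted p under 0.05 only, without the fold minimum that calls also needed. The simulated noise was independent between arrays and probes, unlike the shared shifts of the Nanog-low clones. These shares are therefore not the recovery under the rule used for calls. Members, related lists and marker lists were chosen with earlier results of these data known. All members are named, and of each related list all changed genes up to 5, otherwise the 4 largest in each direction. Alternatives were normexp (offset 50), quantile normalization, median centring, the authors' table, no filter on dim probes, a floor under dim signals, no fold minimum, slide or clone number as a block, the other Mesp1 probe, no Nanog-low clones, and each clone or ES array left out. Clone numbers were not taken as a pairing: of 75 pairs with the same number, 16 had correlated deviations over 0.1, and the median correlation was -0.0004. No rate for pairs with different numbers stands beside this. Nothing says which clones came from separate cultures, so p-values measure the spread between arrayed clones.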

Additional observations from a re-analysis of the deposited data

Results flagged for a closer look

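In 48 sets of 5 clones (8 members in 6 groups), 5 held a clone far from the other 4. The rule flags about 1 in 20 sets of independent, normally distributed values. These sets share clones and hold many upper limits, so the count cannot be set against that rate. T was -2.92 in 3F-TTF-iPS #1, the highest of its group, with the other 4 clones not above background. Mixl1 was -2.82 in 4F-TTF-iPS #4, with the other 4 clones not above background. Gsc was -1.89 in 3F-PaS-iPS #1. Mesp1 was -3.45 in 4F-OP-iPS #1, a Nanog-low clone. Otx2 was -3.75 in 4F-TTF-iPS #1, the Nanog-low clone of its group and the only low value among these. On arrays that no comparison used, Gsc was 1.20 in primary PaS and 0.51 in primary OP, above every clone.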

How the results depend on the processing

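The count of members called was 0 between PaS- and OP-iPS clones and 0 to 2 with 1 clone left out, the 2 (Otx2 and Pou3f1) without 4F-OP-iPS #4. Between 3F- and 4F-clones over the 3 sources it went from 0 to 1 (Otx2) without the Nanog-low clones. Within OP-iPS clones the count of 2 (Gsc and Pou3f1) became 0 with normexp, with no filter on dim probes, with slide as a random block and without the Nanog-low clones, 1 with quantile normalization and with a floor under dim signals, and 0 to 3 with 1 clone left out: 0 without 4F-OP-iPS #2 or #3 or without 3F-OP-iPS #2, #3, #4 or #5, 1 without 4F-OP-iPS #1, and 3 (with Eomes) without 4F-OP-iPS #4 or 3F-OP-iPS #1. Without 4F-OP-iPS #5 the 2 called were Pou3f1 and Eomes. The Pou3f1 difference turned there to -0.089 without the Nanog-low clones. Against ES cells the count of 2 became 1 with the other Mesp1 probe, 3 with quantile normalization (with T), median centring (with Pou3f1), a floor under dim signals or no Nanog-low clones (with Otx2), and 1 to 4 with 1 array left out, 1 without RF8, 3 without 4F-OP-iPS #2 (with Pou3f1), 4F-TTF-iPS #5 or 3F-TTF-iPS #1 (with T), and 4 without 4F-OP-iPS #4 or #5. With normexp the 2 were Fgf5 and Otx2, and without EB-3 Pou3f1 and T. The count of members whose 3F-4F difference varied between sources was 0, and 0 to 3 with 1 clone left out, 3 without 4F-OP-iPS #4. The 1 correlated pair became 0 with normexp, with quantile normalization and without the Nanog-low clones, and 7 with all 30 clones at a floor. The cause was not tested in any of these. Of 1590 single-member values under the alternatives, 1449 kept direction and side of the threshold.

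With clone number as a replicate block, 2 members were called in OP-iPS clones and 2 against ES cells, and 0 in each of the other 6 comparisons, as without the block. Slide as a fixed term could be fitted only between PaS- and OP-iPS clones and within TTF-iPS clones. Dim signal limits T, Mixl1 and Mesp1, of which 7, 1 and 16 of 30 clones were above background.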
